A study of Bos taurus with 18 samples.

Results

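Of 27607 gene identifiers counted in cultured bovine muscle progenitor cells, 173 were abundant in growth medium with serum, stood far lower after serum-based differentiation, and kept more than 1/4 of their serum-free growth level in serum-free differentiation medium. They were chosen from the data by 3 conditions on mean CPM, a gene's count per 1000000 counts of its library. The mean in growth medium with serum (GM) had to be at least 5 CPM, the mean in serum-based differentiation medium (DM) at most 1/8 of the GM mean, and the mean in serum-free differentiation medium (SFDM) above 1/4 of the mean in serum-free growth medium (SFGM). The first condition was met by 10376 identifiers and the first and second together by 258. The SFDM condition divided these 258 into the 173 members and 85 others. The members' levels in GM, DM, SFGM and SFDM therefore define them and are given as description. Values in the remaining 2 media, which the rule did not use, are the measurements that bear on how the members behave.

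Satellite cells are the resident stem cells of skeletal muscle. In culture they divide as myoblasts while growth factors are supplied, and they leave the cell cycle, switch on muscle genes and fuse into multinucleated fibres when these factors are withdrawn. Lowering fetal bovine serum (FBS), a rich source of growth factors, is the usual trigger, and genes that serve cell division are then turned down. A serum-free process has no serum to lower, so the level that growth-phase transcripts reach after the switch is a measurement of interest for cultured meat.

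Each of the 6 groups had 3 libraries of poly(A) RNA, called A, B and C, from satellite cells of Belgian Blue cattle grown on flasks coated with collagen. At 0 h, GM cells had grown with 20% FBS and SFGM cells without serum. At 72 h, GM cells had been moved to DM, which holds 2% FBS, whereas SFGM cells had been moved to serum-free base medium (SFB), to SFDM on a DMEM/F-12 base, or to SFDM on a DMEM base (the DMEM group). The labels call A, B and C biological triplicates without saying whether they were animals or cultures, and the p-values below rest on the spread among these 18 libraries alone. All GM and SFGM libraries analysed are from 0 h, so medium and time in culture cannot be told apart in any comparison of 72 h with 0 h.

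The libraries held 16162525 to 28589018 counts, the fewest in SFDM replicate A. All 173 members passed the expression filter that kept 14637 genes for testing, and each had counts in every group. In 7 members at least 1 group held fewer than 30 counts over its 3 libraries. The identifiers are Ensembl bovine gene identifiers, 0 of which could be paired with a symbol here. Members are therefore described as groups, by rank, and by 4 identifiers, and neither their role in growth nor the cell type could be checked against marker genes.

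The conditions cut through a continuous range of values. The 3 members nearest to the GM limit had 5.01, 5.05 and 5.22 CPM in GM, and the nearest genes below it that met the other conditions had 4.75, 4.48 and 4.24 CPM. At the DM limit the nearest members had DM to GM ratios of 0.1248, 0.1239 and 0.1238, and the nearest genes beyond it 0.1253, 0.1255 and 0.1261. At the SFDM limit the nearest members had SFDM to SFGM ratios of 0.2536, 0.2549 and 0.2552, against 0.2498, 0.2494 and 0.2486 just outside. This last limit ran through a dense region, with 39 members at ratios up to 0.30 and 36 of the 85 others above 0.20.

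Across the 6 media the members stood highest in GM and lowest in DM, with a graded series between. The median member had 54.3, 53.7 and 53.6 CPM in GM libraries A, B and C, and 35.4, 33.8 and 33.6 CPM in SFGM. At 72 h it had 18.3, 19.3 and 20.3 CPM in SFB and 13.8, 14.2 and 14.0 CPM in SFDM. In DMEM it had 5.49, 5.70 and 6.04 CPM, close above the 4.79, 4.53 and 4.04 CPM of DM. No library of one medium overlapped a library of another in this median, so the order was GM, SFGM, SFB, SFDM, DMEM, DM. SFDM replicate A, the shallowest library, lay beside the other SFDM libraries.

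**Figure D1:**
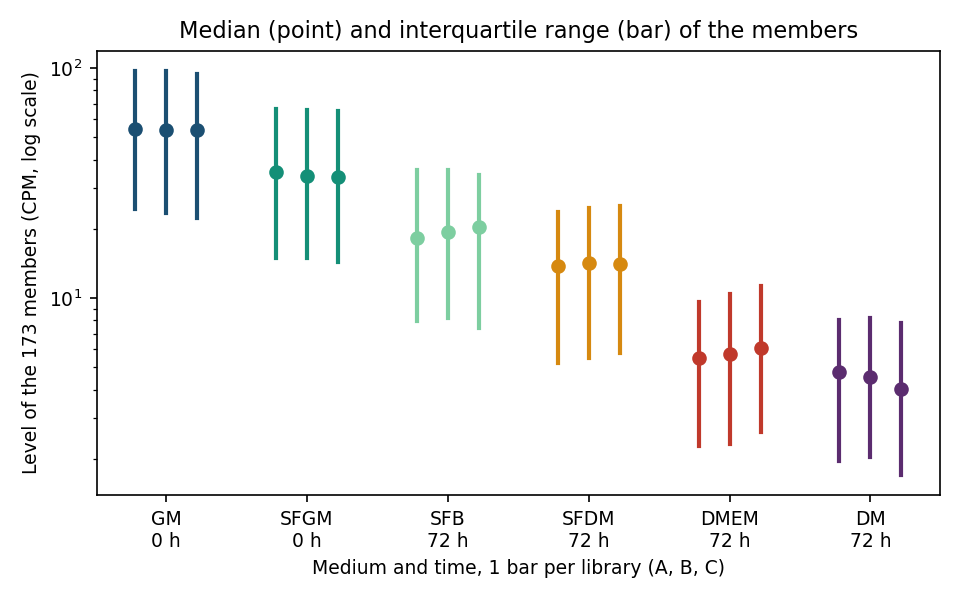
Level of the 173 members in each library, in CPM on a log axis, with libraries A, B and C of each medium side by side. Points are medians over members and bars span the interquartile range; the medians step down from 53.6 to 54.3 CPM in GM to 4.04 to 4.79 CPM in DM, and the DMEM libraries, at 5.49 to 6.04 CPM, lie nearest to DM.

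As a share of all counts, the members together made up 2.73% ± 0.0153 in GM and 1.91% ± 0.0231 in SFGM (SD, n = 3). At 72 h they made up 1.60% ± 0.0321 in SFB, 1.07% ± 0.0321 in SFDM, 0.570% ± 0.0201 in DMEM and 0.223% ± 0.0106 in DM. The pair of members with the highest GM means supplied 1.30% of all counts in GM and 0.940% in SFB. Without them the shares were 1.43% in GM, 0.915% in SFGM, 0.655% in SFB, 0.536% in SFDM, 0.335% in DMEM and 0.122% in DM, in the same order. These are shares of RNA from whole cultures, in which fewer cells of a type and less RNA per cell cannot be told apart.

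Above 1/4 of SFGM, the level that chose the members in SFDM, stood 168 members in SFB and 37 in DMEM. By this limit of 1/4, a description of these genes as incompletely shut down without serum did not hold for most members in DMEM. With 1/8 of SFGM as the limit, like the 1/8 of GM set for DM, the description did hold for most members. Relative to SFGM, the median member kept a ratio of 0.524 in SFB, 0.343 in SFDM and 0.146 in DMEM. In DMEM 136 of the 173 members stood at or below 1/4 of their SFGM mean, and 65 at or below 1/8. In SFB 5 were at or below 1/4. Of 14583 genes tested with counts in SFGM, 330 were at or below 1/4 of SFGM in SFB and 612 in DMEM. In DMEM 258 of these 14583 were at or below 1/8. The members' share at or below 1/4 was thus near that of all genes in SFB and far above it in DMEM. The median ratio over all these genes was 0.908 in SFB and 0.95 in DMEM. By the rule's own limit, 132 members remained above 1/4 of SFGM in SFDM and SFB and not in DMEM, 36 in all 3 media, 4 in SFDM alone, and 1 in SFDM and DMEM. Of the 258 genes that met the GM and DM conditions, 80.6% remained above 1/4 of SFGM in SFB, 67.1% in SFDM and 17.4% in DMEM.

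**Figure D2:**
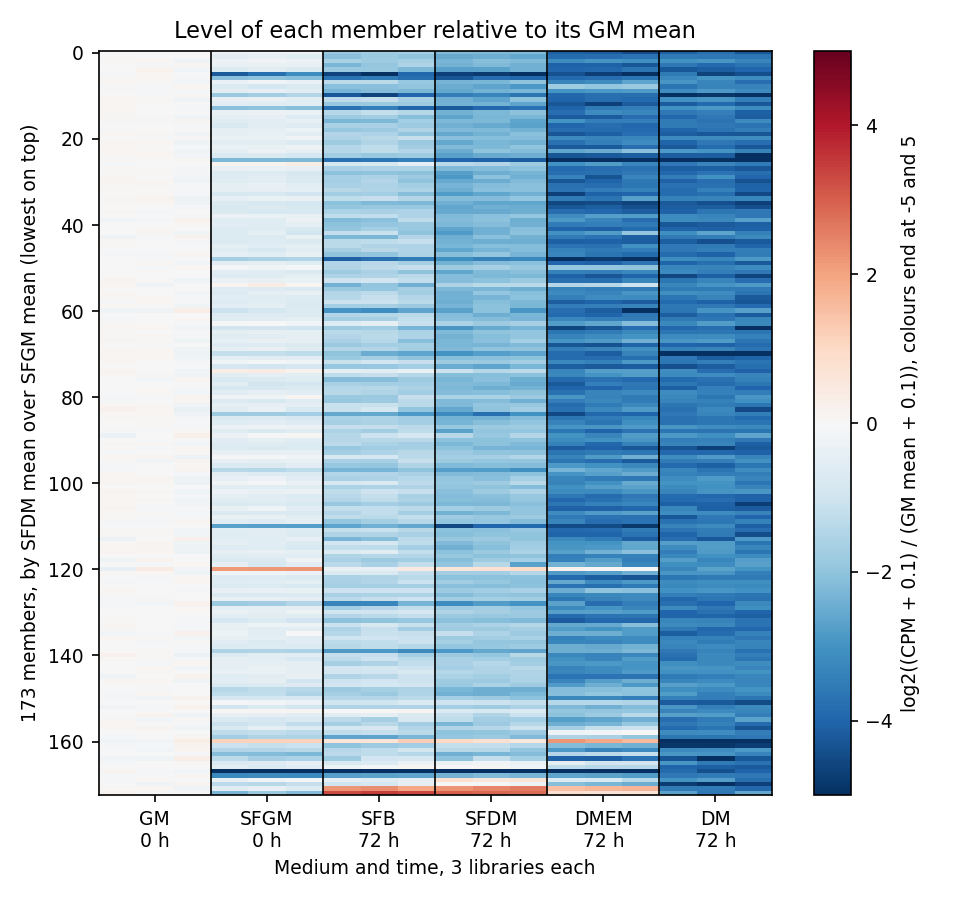
Level of every member in every library relative to its own GM mean, as log2 of the CPM ratio after adding 0.1 CPM, with members ordered by their SFDM to SFGM ratio and blue for lower. The blue deepens from SFGM through SFB and SFDM to DMEM and DM for most of the 173 members, and the few red cells in the lowest rows are members above their GM mean in serum-free libraries.

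How incomplete the fall was also depended on the starting point. The members' SFGM mean was a median 0.672 of the GM mean (interquartile range 0.609 to 0.749), a lower starting level for these genes. The rule favours such a ratio, since it chose GM means as high and a low SFGM mean helps to meet the SFDM condition. The median ratio was 0.710 in the 85 others and 1.01 over all genes tested. Choosing high GM means also favours low ratios to GM in the values that follow. Set against GM in place of SFGM, the median ratio was 0.228 in SFDM, 0.352 in SFB and 0.0960 in DMEM, against 0.0850 in DM. Measured this way, 1/4 of the GM mean or less had been reached by 156 members in DMEM, 108 in SFDM and 23 in SFB. Of 14560 genes tested with counts in GM, 755 had reached it in DMEM, 676 in SFDM and 432 in SFB. The members' DMEM mean was a median 1.16 times the DM mean (interquartile range 0.957 to 1.49), and 53 members stood at or below DM in it. Of 14603 genes tested with counts in DM, 6527 were below DM in DMEM, with a median ratio of 1.05. For the members the median was 2.82 times DM in SFDM and 4.26 times in SFB. The DM libraries were used to choose the members as low, which favours ratios to DM above 1.

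DMEM and SFB are the 2 media the rule did not use, and they differed in nearly all members. The DMEM group had differentiation medium on a DMEM base, whereas SFB is base medium without the differentiation supplements. Supplements and basal medium therefore cannot be told apart in this contrast. In DMEM 155 of the 173 members were lower than in SFB and 5 were higher, by edgeR's quasi-likelihood test with Benjamini-Hochberg adjustment at 0.05 over all genes tested. Of all 14637 genes, 20.1% were lower in DMEM and 20.8% higher, so the members' share of lower genes lay far above this background and their share of higher genes below it. The median log2 fold change of the members was -1.87 (interquartile range -2.24 to -1.46), a level 3.65-fold lower in DMEM, against a median near zero of -0.00153 over all genes. At least 2-fold lower were 145 members, against a background of 4.82%. Of the 13 members that did not pass, 2 had an unadjusted p under 0.05.

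**Figure D3:**
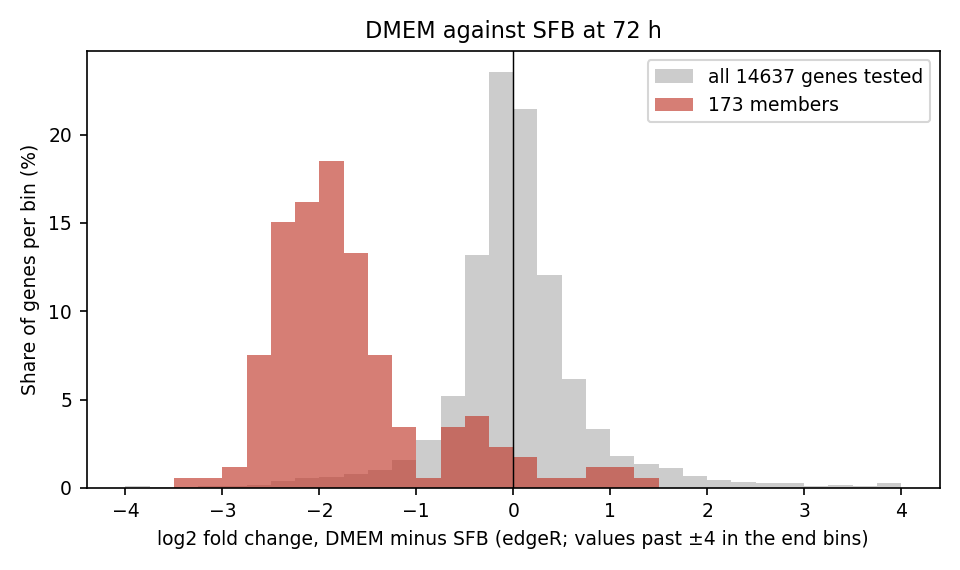
Distribution of log2 fold changes between DMEM and SFB for the 173 members (red) and all 14637 genes tested (grey), as the share of each set per bin of 0.25. The members form a peak around -2 with a smaller group between -1 and 1.5, while all genes centre on 0; the members' median is -1.87.

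The difference between these media had a similar size among members with at least 20 CPM in GM, and a smaller size among the scarcest. Among the 41 members with at least 100 CPM in GM the median DMEM to SFB ratio was 0.277, and 37 were lower in DMEM. Among the 49 with 50 to 100 CPM the ratio was 0.282 and 48 were lower. With 20 to 50 CPM it was 0.279, with 44 of 51 lower, and with 5 to 20 CPM 0.347, with 26 of 32 lower. Over all genes tested, not split by level, 20.1% were lower in DMEM.

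Most members were lower than in SFGM in both media that were not part of the rule, by more in DMEM than in SFB. The SFGM libraries entered the rule as the denominator of its SFDM condition, so these comparisons are only partly free of it, and they share the SFGM libraries. In SFB 146 members were lower than in SFGM and 7 higher, where the background was 29.9% lower and 28.6% higher, with a median log2 fold change of -0.82. At least 2-fold lower in SFB were 51, against a background of 7.64%. Compared with SFGM, 164 members had a lower and 7 a higher level in DMEM, where the background was 31.3% and 32.1%, and the median was -2.70. At least 2-fold lower in DMEM were 157, against a background of 10.5%. Lower in both media were 145 members, against a background of 22.5% for this pair of calls, which share the SFGM libraries. In both media 4 members were higher, against 21.9%, and 3 were higher in SFB and lower in DMEM, against 0.84%. All tests were edgeR quasi-likelihood tests.

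**Figure D4:**
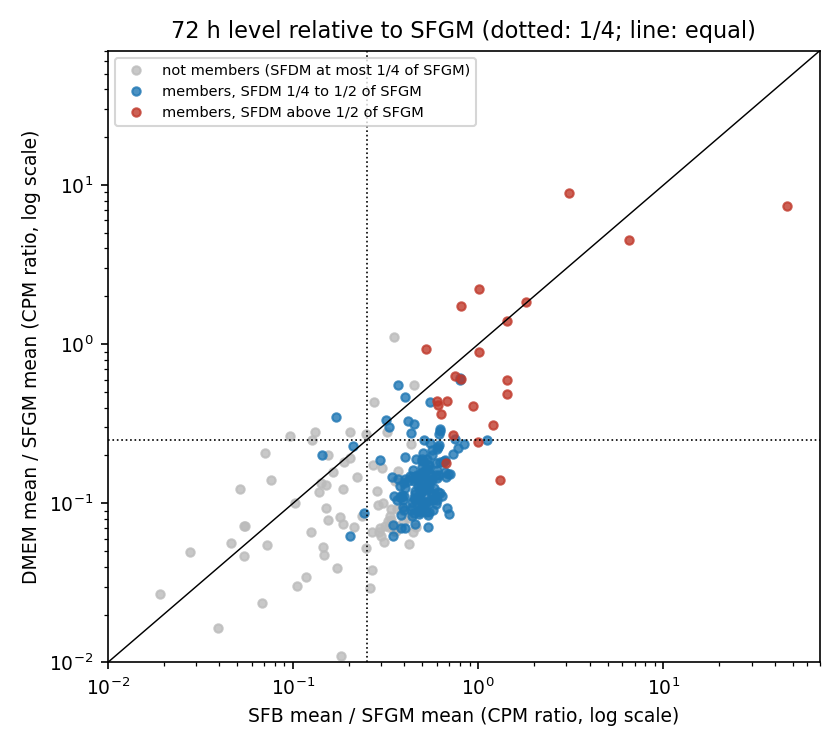
Mean level in DMEM (vertical) against SFB (horizontal), both as ratios to the SFGM mean on log axes, for the members and for the genes that failed only the SFDM condition (grey; those with a ratio below 0.01 are outside the axes). Most members with SFDM at 1/4 to 1/2 of SFGM (blue) lie below the line of equality and below the dotted line at 1/4 for DMEM but right of it for SFB, and those with SFDM above 1/2 (red) are spread toward higher ratios.

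The SFDM means are given here as description, since the rule chose the members as high in SFDM. The order of means was SFB, SFDM, DMEM in 147 members (85.0%), and the same order held for 58.8% of the 85 genes outside and 15.8% of all genes tested. Calls of DMEM below SFDM are favoured by that choice, and calls in either comparison with SFDM are not independent of it. Against SFDM, 154 members had a lower and 6 a higher level in DMEM, where the background was 22.4% and 24.2%, and the median log2 fold change was -1.32. Against SFB, 123 members had a lower and 10 a higher level in SFDM, where the background was 20.0% and 14.8%, and the median was -0.55. These calls are from edgeR quasi-likelihood tests. With the replicate letter as a block and only the SFDM and SFB libraries in the fit, 33 members were called lower and 3 higher in SFDM.

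The members' SFDM to SFGM ratio, which the rule used, and their DMEM to SFGM ratio have the same SFGM denominator, so a low SFGM mean raises both, and the counts that follow are description. In 150 members the SFDM mean was 1/4 to 1/2 of SFGM, with a median of 36.3 CPM in SFGM, 20.1 in SFB, 13.6 in SFDM, 5.53 in DMEM and 5.11 in DM. Of these, 133 were at or below 1/4 of SFGM in DMEM. In 15 members the SFDM mean was between 1/2 of SFGM and all of it, and 3 of them were at or below 1/4 in DMEM. In 8 members SFDM was at least as high as SFGM, and none of these was at or below 1/4 in DMEM. One of the 8 rests on 3 counts in SFGM and 4 in SFDM over the 3 libraries of each, too few for a ratio.

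ENSBTAG00000004428 and ENSBTAG00000007860 are among these 150 members, and had the lowest SFDM to SFGM ratios among the 12 members most abundant in GM. ENSBTAG00000007860 had 295.3, 278.2 and 259.4 CPM in GM libraries A, B and C, and 220.0, 214.2 and 231.5 in SFGM. At 72 h it had 104.4, 114.1 and 83.37 CPM in SFB, 59.52, 59.15 and 68.08 in SFDM, 15.18, 14.95 and 19.57 in DMEM, and 14.96, 19.16 and 14.68 in DM. The DMEM and DM libraries overlapped, whereas SFB, SFDM and DMEM were separate from each other. ENSBTAG00000007860 was 6.28-fold lower in DMEM than in SFB (log2 fold change -2.65 ± 0.13, SE, edgeR adjusted p = 6.95e-11). Its level in SFB was 2.03-fold below SFGM (edgeR adjusted p = 1.49e-06), and its level in DMEM 12.8-fold below (edgeR adjusted p = 3.15e-13). Picking by a low SFDM to SFGM ratio favours a high SFGM mean, so both comparisons with SFGM are not free of the pick.

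The other identifier had already fallen far in SFB and differed less between the serum-free media. ENSBTAG00000004428 had 557.1, 530.5 and 501.6 CPM in GM and 372.4, 396.3 and 363.1 in SFGM. At 72 h it had 105.9, 118.9 and 107.2 CPM in SFB, 90.58, 102.4 and 107.8 in SFDM, 65.87, 73.26 and 73.53 in DMEM, and 61.94, 71.57 and 58.66 in DM. SFB and SFDM overlapped, as did DMEM and DM. ENSBTAG00000004428 was 1.61-fold lower in DMEM than in SFB, a smaller step than the members' median (log2 fold change -0.69 ± 0.082, SE, edgeR adjusted p = 3.34e-06). Between SFDM and SFB its log2 fold change was -0.12 (edgeR adjusted p = 0.284). The rule and the pick both used the SFDM libraries, so this last comparison is not free of either.

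A few members rose at 72 h without serum, although their DM level was low. ENSBTAG00000017071 had the highest SFDM to SFGM ratio among the 12 most abundant members. It had 382.2, 385.3 and 321.3 CPM in GM and 253.3, 270.7 and 225.0 in SFGM, and 31.75, 30.94 and 23.65 in DM. In SFB it stood at 1678, 1807 and 1391 CPM, in SFDM at 1743, 1976 and 2174, and in DMEM at 1043, 1158 and 1167. Every library of the 3 serum-free 72 h media was above every library of GM, SFGM and DM. The rise over SFGM was 7.06-fold in SFB and 4.72-fold in DMEM (log2 fold changes 2.82 ± 0.124 and 2.24 ± 0.122, SE, edgeR adjusted p = 7.07e-12 and 5.46e-11). Even so, ENSBTAG00000017071 was lower in DMEM than in SFB (log2 fold change -0.58 ± 0.116, SE, edgeR adjusted p = 0.000697). Picking by a high SFDM to SFGM ratio favours a low SFGM mean, so its comparisons with SFGM are not free of the pick.

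Another kind of member was already low in SFGM. ENSBTAG00000006609, whose SFDM to SFGM ratio was second among the 12 members most abundant in GM, had 393.1, 414.3 and 421.3 CPM in GM and 44.16, 44.98 and 44.71 in SFGM, 9.18-fold less. At 72 h it had 33.89, 36.54 and 33.95 CPM in DM, 60.14, 64.01 and 66.52 in SFB, 80.12, 89.19 and 81.11 in SFDM and 65.05, 63.38 and 59.33 in DMEM. All serum-free libraries at 72 h were above all SFGM libraries and far below GM. ENSBTAG00000006609 was 1.54-fold higher in SFB and 1.47-fold higher in DMEM than in SFGM (edgeR adjusted p = 1.57e-07 and 4.49e-07). Between DMEM and SFB its libraries overlapped (log2 fold change -0.07 ± 0.060, SE, edgeR adjusted p = 0.396). The SFGM libraries served in the rule and in the pick, so the comparisons with SFGM are not free of either.

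**Figure D5:**
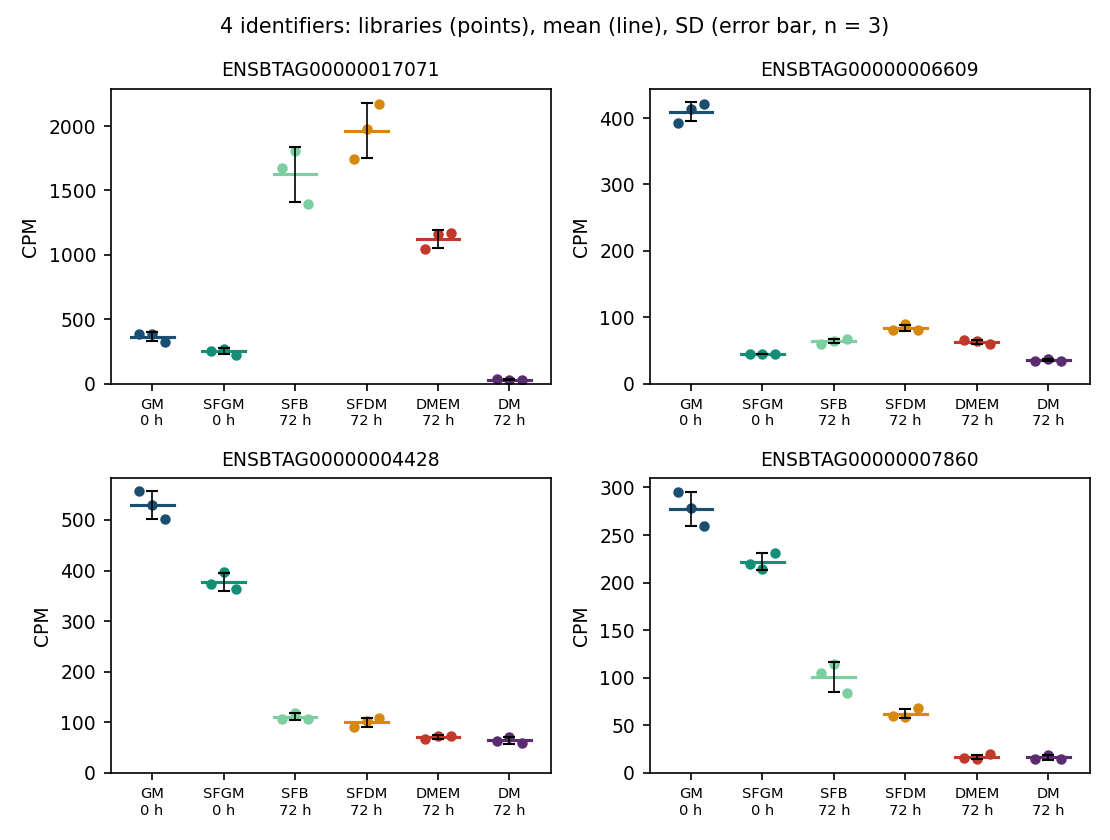
CPM of the 4 identifiers in every library (points) with the mean (line) and SD (error bar, n = 3) per medium, on linear axes from 0. ENSBTAG00000017071 is highest in the 3 serum-free 72 h media, ENSBTAG00000006609 is high only in GM, and ENSBTAG00000004428 and ENSBTAG00000007860 step down from GM to DM with DMEM level with DM.

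In 9 members, ENSBTAG00000006609 among them, the SFGM mean was at most 1/4 of GM, with medians of 47.5 CPM in GM and 11.2 in SFGM. Their median SFDM level of 3.86 CPM was below that of DM, at 5.48 CPM. A ratio above 1/4 in SFDM thus did not mean a level above DM in every member. In 6 members the SFDM mean was below the DM mean. Among these, 2 rest on only 4 and 6 counts in SFDM over its 3 libraries. At the other end, 6 members were at least as high in SFGM as in GM.

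The most abundant member, chosen for its level in GM after its values were seen, had SFB libraries that overlapped its SFGM libraries. It had 8525, 8551 and 8667 CPM in GM, 8966, 8837 and 9412 in SFGM, and 8731, 8941 and 9417 in SFB. In SFDM it had 5264, 4873 and 5219 CPM, in DMEM 2217, 2184 and 2259, and in DM 847.8, 933.3 and 887.4. The SFB and SFGM libraries did not pass the test of a difference (log2 fold change 0.11 ± 0.048, SE, edgeR adjusted p = 0.0593). That fold change uses TMM scaling, whereas the CPM means by library totals were 9029 in SFB and 9072 in SFGM. The SFGM libraries entered the rule, so this comparison is not free of it. In DMEM it was 4.20-fold lower than in SFB (edgeR adjusted p = 2.3e-14). The second most abundant member was already far lower in SFGM, with a mean of 932.2 CPM against 4418 in GM. Its means at 72 h were 370.4 CPM in SFB, 266.6 in SFDM, 124.9 in DMEM and 121.8 in DM, and its DMEM and DM libraries overlapped.

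The next most abundant member went against the group in DMEM. It had 694.1, 708.9 and 728.3 CPM in GM, 295.8, 304.8 and 279.2 in SFGM, and 79.28, 83.44 and 65.17 in DM. In DMEM it stood at 589.9, 651.0 and 723.4 CPM, overlapping GM, against 290.7, 315.6 and 279.2 in SFB and 175.5, 181.4 and 202.4 in SFDM. It was 2.15-fold higher in DMEM than in SFB, with the largest such rise among the 5 members called higher (log2 fold change 1.10 ± 0.086, SE, edgeR adjusted p = 2.29e-08). Of these 5 members, all were above 1/4 of SFGM in DMEM and 3 had an SFGM mean of at most 1/2 of GM. The former largely follows from the call, since 168 of the 173 members were above 1/4 of SFGM in SFB.

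The member with the largest SFDM to SFGM ratio, also picked after its values were seen, was scarce in growth and in DM. It had 7.78, 6.33 and 6.38 CPM in GM, 1.32, 1.82 and 1.42 in SFGM, and 0.974, 0.489 and 1.06 in DM. In SFB it had 66.0, 76.3 and 70.5 CPM, in SFDM 54.8, 50.4 and 47.9, and in DMEM 12.1, 10.6 and 11.0. It was 50.1-fold higher in SFB and 7.69-fold higher in DMEM than in SFGM (edgeR adjusted p = 3.12e-14 and 6.8e-11). Both comparisons use the SFGM libraries of the pick, which favours a low SFGM mean, so they are not free of it. In DMEM this member was 6.51-fold lower than in SFB (edgeR adjusted p = 5.41e-11), a step like that of ENSBTAG00000007860 in size although its course from growth was the opposite.

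The 18 members that were not called lower in DMEM than in SFB were a mixed set. The SFGM mean was at most 1/2 of GM in 11 of them, compared with 14 of the 155 called lower. The SFDM mean was above 1/2 of SFGM in 9 of them and in 14 of the 155. In DMEM 16 of the 18 stayed above 1/4 of SFGM, and 21 of the 155 did. Since 168 of the 173 members stood above 1/4 of SFGM in SFB, this last split largely follows from how the 18 were sorted. The other splits use means that chose the members, and all are description.

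The 85 genes that met the GM and DM conditions but fell to 1/4 of SFGM or less in SFDM are given for comparison. The rule split them off with SFGM as the high side, so their levels relative to SFGM are description. Their median ratio to SFGM was 0.235 in SFB and 0.0808 in DMEM, against 0.524 and 0.146 for the members. Against SFB, 50 of the 85 had a lower and 10 a higher level in DMEM, where the background was 20.1% and 20.8%. Their median log2 fold change was -1.26, against -1.87 for the members. No test of this difference between the 2 sets was made, since the SFDM condition chose both.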

How the data were processed

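The counts the authors deposited are unnormalised read numbers for 27607 Ensembl bovine identifiers, from poly(A) RNA libraries made with a stranded kit and read to 75 bp, per the labels' protocols. The submitters' processing notes name the bosTau9 build, featureCounts and STAR 2.7. The sources used here do not state their parameters, the annotation release or the strand setting, so reads of overlapping, antisense or near-identical genes may be split. All 18 columns were matched to samples by label, and no replicate pair agreed within sampling noise (chi-square per degree of freedom of 1.85 or more).

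CPM used the library totals. Tests used edgeR 4.0.16 in R 4.3.3: filterByExpr (minimum count 10, minimum total 15), TMM scaling, a quasi-likelihood fit of 6 group means to all 18 libraries, and 5 two-sided contrasts adjusted by Benjamini-Hochberg over 14637 genes. SE is the log2 fold change divided by the root of F. The script was tested on simulated data. Alternatives were other scaling, filters, DESeq2 1.42.0, only the compared groups, the replicate letter as a block, other limits in the rule, and leaving out each library. A floor of 3 counts over a group is 0.0364 to 0.0457 CPM, which covers counting error only.

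The members, lists and tests were chosen with earlier results of these data known. The gene lists and cell type markers written for the comparison were not analysed, because 0 identifiers matched a symbol. The 4 identifiers are those with the 2 highest and 2 lowest SFDM to SFGM ratios among the 12 members with the highest GM mean; other members are given by rank.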

Additional observations from a re-analysis of the deposited data

How the results depend on the processing

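The 173 members became 168 with TMM-scaled CPM (147 shared) and 164 with RLE factors (139 shared), 167 to 182 without 1 library, 442 with DM at most 1/4 of GM, 36 at 1/16, and 23 with SFDM above 1/2 of SFGM. The total of members called in DMEM against SFB, SFB against SFGM, DMEM against SFGM and DMEM against SFDM stayed within 1.5 times under every alternative run, though in DMEM against SFB the higher calls went from 5 to 1 with the replicate block and only these groups. For DMEM against SFB, 142 to 156 members were lower and 1 to 6 higher, with medians of -1.88 to -1.82, and without 1 library 154 to 155 were lower. Without 1 library, the members called numbered 159 to 160 there, 150 to 154 in SFB against SFGM, 170 to 171 in DMEM against SFGM, 153 to 158 in DMEM against SFDM and 121 to 133 in SFDM against SFB. The 133 members called in SFDM against SFB fell to 36 with the replicate letter as a block and only these groups in the fit, a setting added after the data were seen; the cause was not tested. Same-letter correlations ran from -0.59 to 0.412 over the 5 contrasts, with at least 1 of 3 at or below 0.1 in each. They gave no uniform pairing by letter, but with 3 libraries per group they cannot exclude one. With all libraries in the fit, the block gave 134 in SFDM against SFB. In DMEM against SFDM each library did correlate best with its own letter, which is a hint from the data only, and the block gave 157 in place of 160. The calls of ENSBTAG00000006609 and ENSBTAG00000007860 in SFDM against SFB were also lost in the fit that called 36. ENSBTAG00000017071 in SFDM against SFB missed the threshold (edgeR adjusted p = 0.0571), and it passed in 6 of 14 alternatives, among them without SFB replicate B or without SFDM replicate A. These identifiers were picked by their SFDM to SFGM ratios among members chosen as high in SFDM. Their calls in SFDM against SFB are therefore not free of the rule or the pick. With totals alone as the scale, the all-gene median moved by -0.116 (log2) at most, in SFB against SFGM, where 150 members were lower and 6 higher. Depth limits the 7 members with fewer than 30 counts in a group.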
